A study of Homo sapiens with 6 samples.

Results

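The 108 genes described here start between 15000000 and 20000000 on chromosome 19 in GRCh37, a gene-dense stretch of the short arm in band 19p13.1. They were chosen by position, by at least 10 reverse-stranded reads in every sample and by a name that does not begin with ZNF, the prefix of zinc finger genes. The files hold 57820 genes, 259 of them in the interval. Of these, 149 had fewer than 10 reads in some sample, among them 68 listed at 0 in every sample, and 2 passing genes were ZNF-named. All 108 members were among the 19599 genes with enough counts to be tested. The interval was picked for its fall in the same comparison of ARID1A-KO with WT samples, so the values of the fall are a description and nothing is tested with them.

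RNA was sequenced from untreated AID-DIvA cells, a human osteosarcoma line that carries an AsiSI restriction enzyme which can be sent to the nucleus to cut DNA and then degraded with auxin. The WT and ARID1A-KO groups had 3 samples each, and both carried the enzyme and had received no drug. The KO was made with a pair of CRISPR guides against ARID1A and knockout clones were established, but the clone that was sequenced is not given in the sources used here. The labels do not say whether the samples came from separate cultures, while the study describes its expression data as coming from independent biological replicates. The p-values behind the calls measure the spread between these samples and not differences between clones. If all ARID1A-KO samples came from a single clone, effects of genotype and of clone cannot be told apart.

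ARID1A is a DNA-binding subunit of the BAF complex, a SWI/SNF remodeller that slides or evicts nucleosomes at promoters and enhancers. Genes that lie side by side on a chromosome usually have their own promoters and unrelated functions, although they share the local chromatin. The stretch described here holds transcription regulators such as GATAD2A and KLF2, the kinase gene JAK3, the receptor gene NOTCH3, a cluster of cytochrome P450 genes of the CYP4F family and many housekeeping genes.

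Samples held 54512105 to 84088708 reverse-stranded counts. ARID1A was at 166 to 178 CPM (reads scaled to library size by TMM) in the WT samples and at 25.1 to 27.5 CPM in the ARID1A-KO samples, so the labels held for all 6. On the authors' TPM scale, which divides by transcript length, the mesenchymal marker VIM was at 1940 to 2290 TPM in WT and 3540 to 3980 TPM in ARID1A-KO samples, SPARC at 621 to 727 and 360 to 391 TPM, COL1A1 at 196 to 204 and 119 to 181 TPM and CDH2 at 145 to 159 and 90.8 to 94.5 TPM. RUNX2 lay between 6.11 and 10.5 TPM, whereas COL1A2 and TWIST1 did not exceed 0.108 TPM. The epithelial marker KRT20 was at 0.363 to 0.668 TPM in WT and 16.0 to 25.7 TPM in ARID1A-KO samples. EPCAM lay between 7.47 and 12.6 TPM, and CDH1, PTPRC, CD3E and CDH5 did not exceed 1.3 TPM. The part of these marker differences in the levels given below was not tested. In bulk RNA, fewer cells that express a gene and less RNA per cell cannot be told apart.

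Promoter sequences are shown for 4 members as examples. RefSeq promoter entries (GRCh38.p14) matched 78 of the 108 members, and the window used was the 200 bases from 250 to 51 bases before the RefSeq start. The 4 have the lowest and the highest log2 fold changes among called members over 1 log2 CPM whose window matched GRCh37 at 1 place outside the gene. Capitals mark matches on either strand to GGGCGG, the GC box bound by SP1-like factors, or to CCAAT, the box bound by NF-Y. The motifs TATAAA and TGANTCA were searched too and had no match in these 4 windows. CYP4F11 and FCHO1 were lower in ARID1A-KO cells. CYP4F22 and KLF2 were higher. The positions in GRCh37 are chr19:16045728-16045927 on the minus strand for CYP4F11, chr19:17858303-17858502 on the plus strand for FCHO1, chr19:15619086-15619285 on the plus strand for CYP4F22 and chr19:16435387-16435586 on the plus strand for KLF2.
CYP4F11: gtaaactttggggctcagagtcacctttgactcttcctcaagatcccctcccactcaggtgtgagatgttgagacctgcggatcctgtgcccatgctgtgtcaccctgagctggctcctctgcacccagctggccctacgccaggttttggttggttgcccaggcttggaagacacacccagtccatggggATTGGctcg
FCHO1: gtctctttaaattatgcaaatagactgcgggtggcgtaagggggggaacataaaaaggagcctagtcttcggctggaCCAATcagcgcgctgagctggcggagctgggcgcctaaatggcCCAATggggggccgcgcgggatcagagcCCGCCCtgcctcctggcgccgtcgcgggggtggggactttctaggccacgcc
CYP4F22: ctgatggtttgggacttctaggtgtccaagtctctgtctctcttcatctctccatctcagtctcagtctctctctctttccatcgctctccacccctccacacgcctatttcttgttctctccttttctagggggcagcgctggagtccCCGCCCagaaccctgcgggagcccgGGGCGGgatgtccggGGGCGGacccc
KLF2: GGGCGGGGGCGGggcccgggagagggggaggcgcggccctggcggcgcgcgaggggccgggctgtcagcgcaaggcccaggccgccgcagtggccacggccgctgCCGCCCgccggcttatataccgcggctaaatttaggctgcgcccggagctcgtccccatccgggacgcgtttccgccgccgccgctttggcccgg

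These windows range from the CpG-poor promoter of CYP4F11, with an observed over expected CpG ratio of 0.18 and a GC content of 58.0%, to the CpG-rich one of KLF2, with a ratio of 1.01 and a GC content of 78.5%. Over the 78 members with an entry, the median GC content of the window was 67%, against 57.0% over the 27305 promoters of the table. A GC box was in 71.8% of the members' windows and in 34.7% of all windows. CCAAT was in 33.3% of the members' windows and in 28.3% of all, TGANTCA in 5.13% and 5.35%, and TATAAA in 0 of the members' windows and 7.79% of all. Every window stops 51 bases before the start, so a TATA box nearer the start lies outside it and could not be found. The 27305 promoters were not filtered for reads in these cells, whereas every member had at least 10 reads per sample. The sets are thus unlike, and the shares do not show a trait of this region. Of the members lower in ARID1A-KO cells, 37 of 49 windows held a GC box, and of those higher, 7 of 10. CCAAT was in 20 of the 49 windows of lower genes and in 0 of the 10 windows of higher genes. For both motifs the numbers are too small for a comparison, and no test was run. A match is only a run of letters and says nothing of whether a factor binds there.

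A gene is called lower or higher when its adjusted p is under 0.05 in edgeR's quasi-likelihood test over all genes tested. Of the 108 members, 68 were called lower and 12 higher with ARID1A lost, and 28 were not called. Over all genes tested, 18.4% were called lower and 17.8% higher, 36.2% in either direction. The log2 fold change was below 0 for 91 of the 108 members, and for 49.1% of all genes tested. Its median was -0.45 over the members, a ratio of 0.731, with quartiles of -0.71 and -0.18, and 0.01 over all genes. The 3 ARID1A-KO samples all lay below the 3 WT samples in 72 members, where 24.8% of all genes did so, and all above in 10 members, where 24.8% did as well. The fall was broad, and its median ratio of 0.731 was short of a 2-fold change. Called lower by 2-fold or more were 6 members (5.56%), against 5.92% of all genes tested. Called higher by 2-fold or more were 5 members (4.63%), against 4.86%. Both shares are near those of all genes, and nothing is read from them.

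The shift was seen in every ARID1A-KO sample. The CPM of the members summed to 5327, 5463 and 5682 in the WT samples and to 3530, 3746 and 3619 in the ARID1A-KO samples, a mean of 5491 ± 179.1 against 3632 ± 108.6 (SD, n = 3). The members' median log2 ratio to the WT mean was -0.52, -0.44 and -0.42 in ARID1A-KO samples 3, 4 and 5, against -0.036, -0.012 and 0.028 in the WT samples. All genes tested had medians from -0.003 to 0.007. Below the WT mean were 91, 92 and 86 of the 108 members in ARID1A-KO samples 3, 4 and 5. Sample 5 was the one in which UCA1, KLF2, BST2 and GDF15 stood far above the others. Without it, 63 members were called lower and 10 higher, and the median was -0.48.

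**Figure D1:**
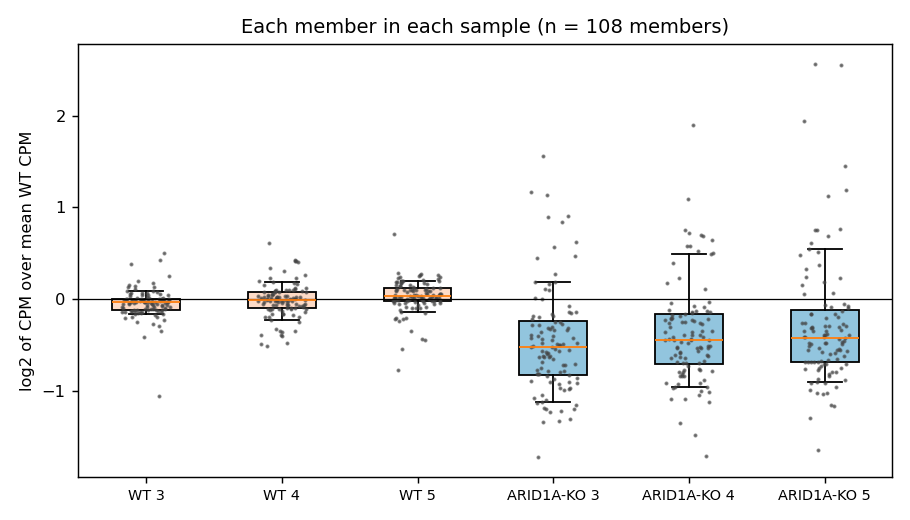
Each point is 1 of the 108 genes in 1 sample, and the y axis gives log2 of its CPM over the mean CPM of the 3 WT samples. Boxes show the quartiles and median, and whiskers the 10th and 90th percentiles. The 3 ARID1A-KO medians lie between -0.52 and -0.42 and the WT medians near 0.

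The fold change varied along the interval. In bins of 1 Mb the median log2 fold change was -0.20 from 15 to 16 Mb (16 genes, 5 called lower), -0.43 from 16 to 17 Mb (17 genes, 15 lower), -0.56 from 17 to 18 Mb (26 genes, 18 lower), -0.64 from 18 to 19 Mb (24 genes, 16 lower) and -0.49 from 19 to 20 Mb (25 genes, 14 lower). The longest unbroken run of genes below 0 held 25 neighbours from EPS15L1 to GTPBP3, from 16466050 to 17453544. Runs of 11 genes from SSBP4 to UPF1 and of 12 genes from COPE to NR2C2AP followed, with only CERS1 between them. Rank correlation of log2 fold change with position over the 108 members was -0.09, a description over neighbouring genes of the same libraries.

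**Figure D2:**
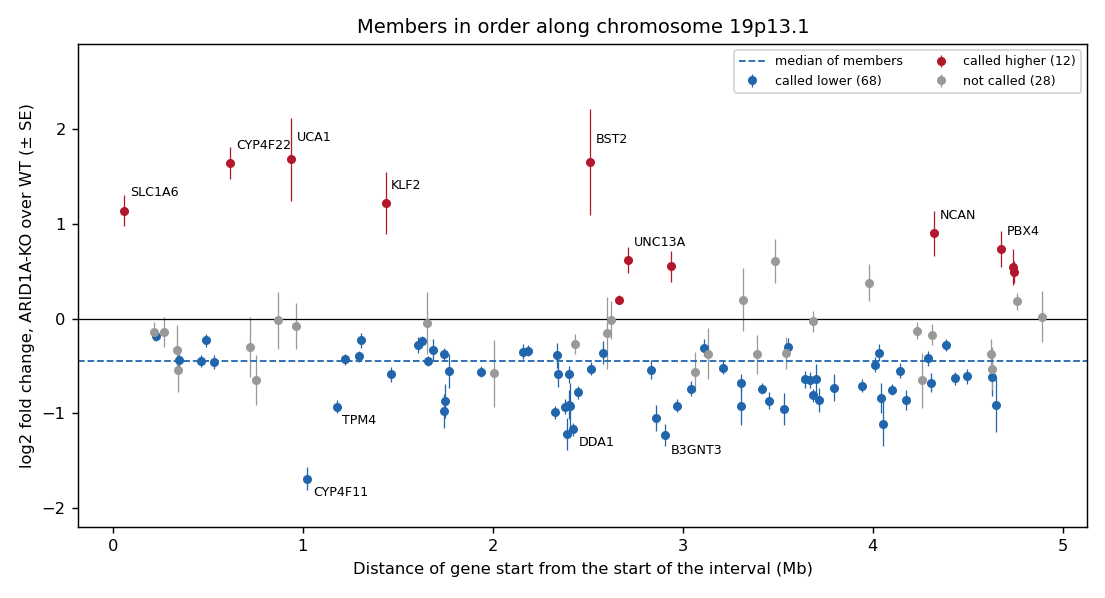
The y axis gives the log2 fold change of ARID1A-KO over WT with its standard error and the x axis the distance of each gene's start from the start of the interval in Mb, coloured by call. The dashed line is the members' median of -0.45. Of the 12 genes called higher, 9 lie before PBX4, the first of them SLC1A6 at the start of the interval, and at the far end 5 genes in a row lie above 0.

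At the far end of the interval the log2 fold changes were no longer below 0. The break was set at PBX4 from the last change of sign in these same values. The signs and medians on either side of it therefore follow from that choice and are a description. The last gene of the low stretch, CILP2, ended at 19657468, and the 5 members from PBX4 (start 19672522) to CTC-559E9.6 (now named ZNF56P, end 19945736) all lay above 0, with a median of 0.49. Of these, PBX4, LPAR2 and GMIP were called higher. ATP13A1 (0.18 ± 0.09) and CTC-559E9.6 (0.02 ± 0.27) were not called. The 2 ZNF-named genes left out of the members lie in the same end piece. ZNF101 (19779605 to 19794318) had a log2 fold change of 0.25 ± 0.11 (SE) and ZNF14 (19821280 to 19843906) one of -0.02 ± 0.15, neither called. The 103 members before PBX4 had a median of -0.49, with 68 called lower, 9 higher and 26 not called.

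The genes before the interval also lay mostly below 0. The 113 genes from 10 to 15 Mb chosen by the same rule had a median of -0.29, with 52 called lower and 4 higher. The nearest called gene before the interval, EMR2, was higher at 0.55 ± 0.18, and NDUFB7 and TECR before it were lower at -0.36 ± 0.08 and -0.49 ± 0.09. Nearer the end of the short arm, from 0 to 5 Mb, the 147 genes had a median of 0.28, and all bins of 1 Mb from 3 Mb to the start of the interval lay between -0.41 and -0.12. Beyond the interval, the next genes of the rule start at 23437855, across the centromere-proximal zinc finger clusters, and the 5 genes from 20 to 25 Mb had a median of -0.03 with none called. On the long arm, the 5-Mb windows from 30 Mb on had medians from -0.02 to 0.25. The 11 genes from 25 to 30 Mb had a median of -0.13, with 5 called lower and 0 higher. Low values were not confined to the short arm, since the 14 genes from 44 to 45 Mb had a median of -0.42, with 9 called lower.

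**Figure D3:**
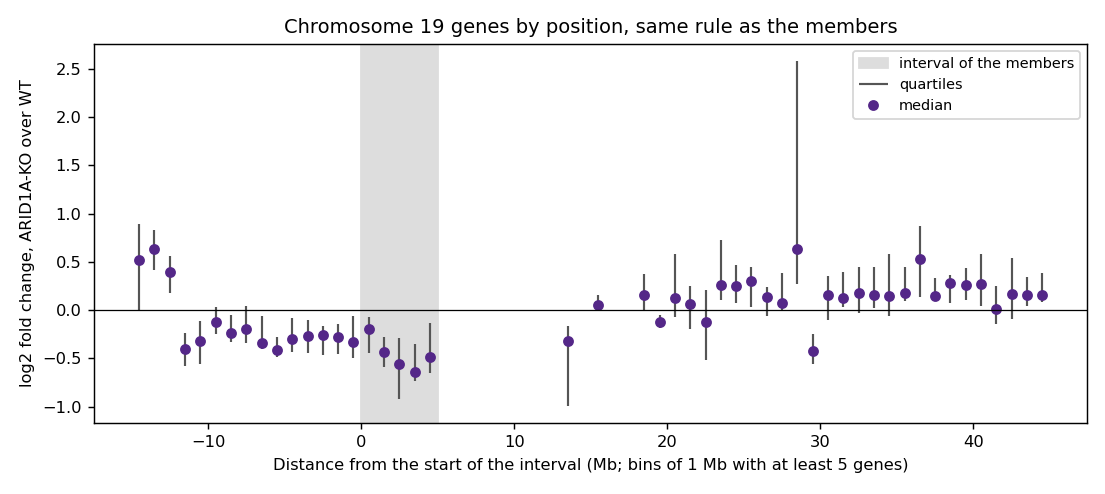
Points are medians and lines quartiles of the log2 fold change of ARID1A-KO over WT in bins of 1 Mb of chromosome 19 with at least 5 genes, chosen by the same count rule, against the distance from the start of the interval in Mb. The interval (grey) holds the lowest medians of the short arm, at -0.64 and -0.56, the 3 bins at the far left lie between 0.39 and 0.63, and a long-arm bin lies at -0.42.

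The members were grouped into lists by textbook role, which place 71 of the 108. Of all members 63% were called lower, with a median of -0.45, against 18.4% of all genes tested. The counts of each list are to be read beside these values, since every list shares in the fall for which the interval was picked. Transcription and chromatin genes had a median near that of all members. Of 17 such members, 13 were called lower, KLF2 and PBX4 were called higher and JUND and MEF2B were not called, with a median of -0.46. GATAD2A, a subunit of the NuRD deacetylase complex, was at 158, 153 and 169.8 CPM in WT and at 104, 116 and 94.7 CPM in ARID1A-KO samples (log2 fold change -0.61 ± 0.08). WIZ, a zinc finger partner of the G9a histone methyltransferase, was at 77.2, 78.7 and 85.2 CPM in WT and at 54.2, 61.1 and 60.2 CPM in ARID1A-KO samples (-0.46 ± 0.07). In both, the genotypes did not overlap. MAU2, the partner of NIPBL in loading cohesin onto DNA, was at 37.8, 42.4 and 38.5 CPM in WT and at 25.8, 26.6 and 24.3 CPM in ARID1A-KO samples (-0.63 ± 0.07), again without overlap. SSBP4, a single-stranded DNA-binding protein family member, was the lowest of the list at -0.96 ± 0.17, from 59.1, 51.6 and 70.4 CPM in WT to 23.8, 30.2 and 39.1 CPM in ARID1A-KO samples, with a wide spread in both genotypes.

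KLF2, a Krüppel-like zinc finger factor, went the other way. It was at 3.84, 3.41 and 3.42 CPM in WT and at 5.29, 5.75 and 13.7 CPM in ARID1A-KO samples (1.22 ± 0.33). Every ARID1A-KO sample was above every WT sample, but sample 5 held more than the other two together. Without that sample the log2 fold change was 0.63 and KLF2 was still called, but without WT sample 5 it was not called, at 1.19. JUND, an AP-1 subunit named after its values were seen, was at 57.1, 41.8 and 61.8 CPM in WT and at 30.7, 36.9 and 55.8 CPM in ARID1A-KO samples. Its genotypes overlapped through ARID1A-KO sample 5, and without this sample it was called lower at -0.66. PBX4, a TALE homeobox gene also named after its values were seen, was at 0.5995, 0.6199 and 0.722 CPM in WT and at 1.204, 0.9098 and 1.09 CPM in ARID1A-KO samples (0.73 ± 0.19).

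All 6 members of RNA processing and decay were called lower, with a median of -0.53 (UPF1, LSM4, DDX49, CHERP, SUGP1 and SUGP2). UPF1, the helicase of nonsense-mediated decay, was at 191, 191 and 209 CPM in WT and at 112, 127 and 123 CPM in ARID1A-KO samples (-0.71 ± 0.07). LSM4, a core protein of the Lsm ring that binds U6 RNA and decaying transcripts, was at 136, 135 and 139 CPM in WT and at 79.2, 87.6 and 78.8 CPM in ARID1A-KO samples (-0.74 ± 0.06). SUGP2, a SURP and G-patch domain protein, was at 211, 209.6 and 197 CPM in WT and at 117, 124 and 127 CPM in ARID1A-KO samples (-0.75 ± 0.06). These 3 genes are abundant, had narrow spreads and did not overlap between genotypes.

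Ribosomal and mitochondrial proteins formed another low list. Of 7 members, 6 were called lower and NDUFA13 was not called, with a median of -0.78. GTPBP3, which modifies mitochondrial tRNA, was at 47.6, 52.7 and 49.5 CPM in WT and at 27.97, 30.8 and 28.8 CPM in ARID1A-KO samples (-0.78 ± 0.07).

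Of 11 members of vesicle and membrane traffic, 10 were called lower and UNC13A was called higher, with a median of -0.53. KXD1, a subunit of the BORC complex that positions lysosomes, was at 135, 153 and 146 CPM in WT and at 94.3, 99.99 and 82.3 CPM in ARID1A-KO samples (-0.65 ± 0.08). RAB8A, a GTPase of exocytosis, was at 100.2, 96.98 and 105 CPM in WT and at 76.3, 75.3 and 72.5 CPM in ARID1A-KO samples (-0.43 ± 0.06). AP1M1, a subunit of the AP-1 clathrin adaptor, was at 84.01, 93.3 and 99.5 CPM in WT and at 81.1, 82.01 and 72.3 CPM in ARID1A-KO samples (-0.23 ± 0.08). The gap between genotypes for AP1M1 was narrow. FCHO1, an F-BAR protein that starts clathrin-coated pits, lay deeper, from 7.42, 6.86 and 7.96 CPM in WT to 2.996, 3.77 and 3.95 CPM in ARID1A-KO samples (-1.05 ± 0.14). USE1, a SNARE of retrograde transport to the endoplasmic reticulum, was at 24.4, 23.9 and 25.4 CPM in WT and at 12.5, 11.9 and 12.7 CPM in ARID1A-KO samples (-0.99 ± 0.07). UNC13A, a priming factor of synaptic vesicles, was the only member of the list that was higher, from 9.76, 14.9 and 12.7 CPM in WT to 19.1, 20.1 and 18.2 CPM in ARID1A-KO samples (0.62 ± 0.14).

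**Figure D4:**
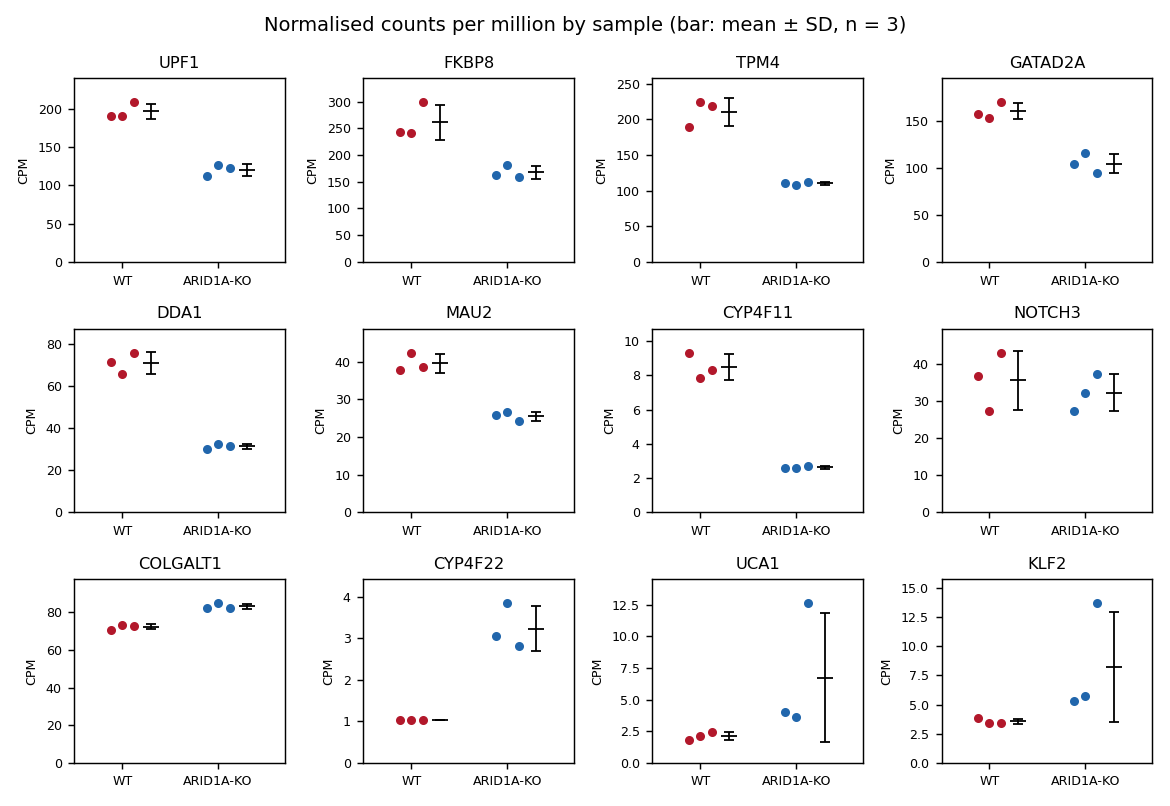
Each panel gives the CPM of 1 gene in the 3 WT and 3 ARID1A-KO samples, with the mean and SD beside the points (n = 3), on a y axis from 0. UPF1, FKBP8, TPM4, GATAD2A, DDA1, MAU2 and CYP4F11 do not overlap between genotypes and are lower, NOTCH3 overlaps, and COLGALT1, CYP4F22, UCA1 and KLF2 are higher.

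The 6 members of the cytoskeleton and small GTPase list had a median of -0.34, with 4 called lower, GMIP called higher and SYDE1 not called. TPM4, a tropomyosin of actin filaments, was at 189, 224 and 219 CPM in WT and at 111, 108 and 112 CPM in ARID1A-KO samples (-0.93 ± 0.07). MYO9B, a myosin with a GTPase-activating domain, was at 117, 124 and 125 CPM in WT and at 90.98, 101 and 97.9 CPM in ARID1A-KO samples (-0.34 ± 0.06). SYDE1, another GTPase-activating protein, was at 60.9, 54.7 and 71.9 CPM in WT and at 51.3, 58.8 and 60.1 CPM in ARID1A-KO samples (-0.14 ± 0.10). TPM4 and MYO9B did not overlap between genotypes and SYDE1 did. GMIP, a GEM-interacting GTPase-activating protein in the end piece after PBX4, was at 4.17, 4.63 and 5.103 CPM in WT and at 6.34, 6.57 and 6.601 CPM in ARID1A-KO samples (0.49 ± 0.12).

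The DNA damage and ubiquitin ligase list was the lowest of the lists with more than 1 member, with all 3 called lower and a median of -1.17. DDA1, a subunit that works with the DDB1-CUL4 ubiquitin ligases, was at 71.3, 65.7 and 75.8 CPM in WT and at 30.2, 32.5 and 31.7 CPM in ARID1A-KO samples (-1.17 ± 0.07). BABAM1, a scaffold of the BRCA1-A complex at DNA breaks, was at 32.1, 38.1 and 35.9 CPM in WT and at 17.9, 18.6 and 19.4 CPM in ARID1A-KO samples (-0.93 ± 0.08). ANKLE1, an endonuclease with ankyrin repeats, was at 3.18, 2.51 and 2.73 CPM in WT and at 1.22, 1.001 and 1.38 CPM in ARID1A-KO samples (-1.22 ± 0.17). The 3 genes lie close together between USE1 and GTPBP3, in the longest run of genes below 0, and their genotypes did not overlap. The other members between USE1 and GTPBP3 were OCEL1 (-0.39), NR2F6 (-0.59), ABHD8 (-0.91), MRPL34 (-0.59), CTD-2278I10.4 (-0.92) and ANO8 (-0.27, not called). Role and position cannot be told apart for this list.

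Lipid and intermediary metabolism split both ways. Of 15 genes in the list 10 were members, with 3 called lower, CYP4F22 and SLC1A6 called higher and 5 not called, and a median of -0.25. CYP4F11, a fatty acid omega-hydroxylase, had the lowest log2 fold change of all members, from 9.32, 7.88 and 8.32 CPM in WT to 2.57, 2.602 and 2.72 CPM in ARID1A-KO samples (-1.69 ± 0.12). CYP4F22, a hydroxylase of ultra-long fatty acids in skin ceramide synthesis, moved in the opposite direction, from 1.03, 1.03 and 1.03 CPM in WT to 3.04, 3.84 and 2.82 CPM in ARID1A-KO samples (1.64 ± 0.17). The members of the same CYP4F cluster thus had no common direction. CYP4F3 was near the count threshold at 11 to 26 reads (-0.65, not called), and CYP4F2, CYP4F8 and CYP4F12 did not reach it, with at most 10 reads in any sample.

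SLC27A1, a fatty acid transporter, was at 8.93, 9.298 and 9.97 CPM in WT and at 6.29, 8.39 and 7.36 CPM in ARID1A-KO samples (-0.36 ± 0.12). ILVBL, an enzyme of the thiamine-dependent lyase family, was at 65.7, 66.3 and 70.5 CPM in WT and at 56.5, 61.8 and 60.1 CPM in ARID1A-KO samples (-0.18 ± 0.06). Both were called lower by a narrow gap. SLC1A6, a glutamate transporter and the first member of the interval, was named after its values were seen. It was at 0.705, 0.789 and 0.756 CPM in WT and at 1.65, 1.601 and 1.72 CPM in ARID1A-KO samples (1.14 ± 0.16).

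Receptors and signalling enzymes were divided, with 5 of 8 listed genes among the members, of which MAST3 was called lower, LPAR2 and JAK3 higher and 2 were not called. NOTCH3, a receptor of Notch ligands expressed in mesenchymal cells, was at 36.7, 27.2 and 42.9 CPM in WT and at 27.2, 32.1 and 37.3 CPM in ARID1A-KO samples (-0.14 ± 0.16). The spread within each genotype exceeded the difference between them, and without WT sample 5 the log2 fold change was 0.01. JAK3, the kinase that signals from common gamma chain cytokine receptors, was low in both genotypes, at 1.33, 1.77 and 1.56 CPM in WT and 2.16, 2.33 and 2.38 CPM in ARID1A-KO samples (0.55 ± 0.16). LPAR2, a lysophosphatidic acid receptor, was at 1.86, 2.54 and 1.77 CPM in WT and at 2.48, 3.22 and 3.31 CPM in ARID1A-KO samples (0.54 ± 0.19). LPAR2 was called although WT sample 4 lay above ARID1A-KO sample 3. MAST3, a microtubule-associated kinase, was at 24.5, 22.8 and 22.3 CPM in WT and at 16.4, 16.3 and 15.7 CPM in ARID1A-KO samples (-0.52 ± 0.07). PIK3R2, F2RL3 and IL12RB1 had at most 13 reads in any sample.

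Of 9 secreted and matrix genes 5 were members, with CILP2 called lower, NCAN higher and 3 not called. GDF15, a stress-responsive cytokine of the TGF-beta family, was at 14.5, 11.8 and 12.8 CPM in WT and at 13.9, 17.2 and 28.5 CPM in ARID1A-KO samples (0.61 ± 0.23). The groups overlapped, and without ARID1A-KO sample 5 the value was 0.25. CILP2, a cartilage matrix protein, was at 1.32, 0.662 and 0.808 CPM in WT and at 0.426, 0.619 and 0.455 CPM in ARID1A-KO samples (-0.91 ± 0.29). Its genotypes were only just apart, and it was not called when WT sample 3 or 5 or ARID1A-KO sample 3 or 5 was left out, with -0.57 without WT sample 3. NCAN, a neural proteoglycan named after its values were seen, was at 0.2998, 0.268 and 0.292 CPM in WT and at 0.646, 0.473 and 0.489 CPM in ARID1A-KO samples (0.90 ± 0.24). COMP, a cartilage matrix protein, and INSL3 had at most 3 reads, and GDF1 and HAPLN4 were listed at 0 in every sample. GDF1 overlaps CERS1 on the same strand, and whether shared reads were left uncounted was not tested.

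**Figure D5:**
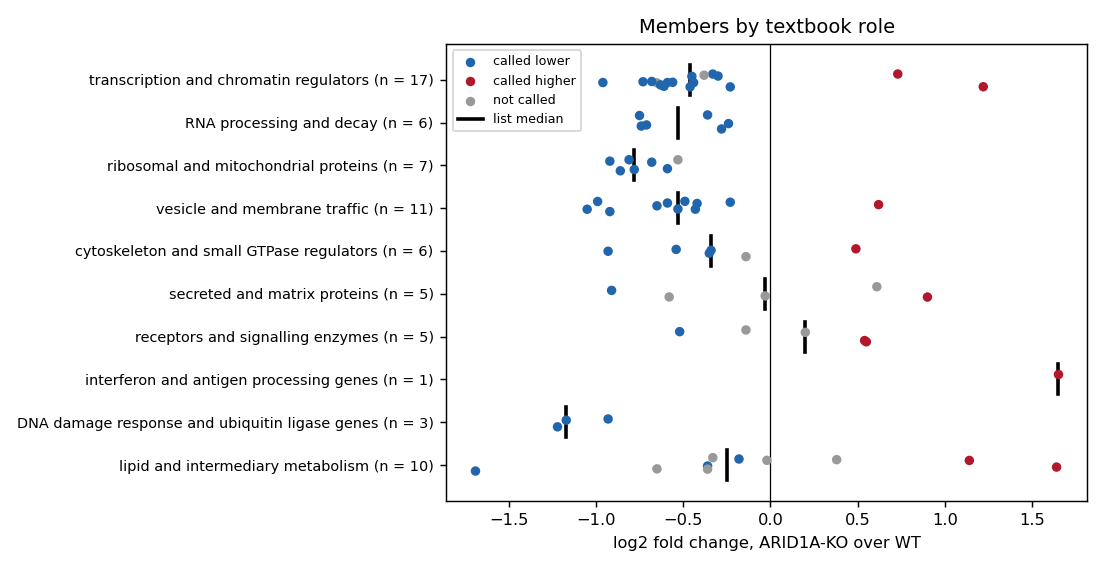
Each point is the log2 fold change of ARID1A-KO over WT of 1 member, placed by its textbook role and coloured by call, with a bar at the list's median. Lists of RNA processing, ribosomal and mitochondrial, traffic and DNA damage genes lie mostly below 0, and signalling, secreted and metabolic genes fall on both sides. Most lists are small, and all were written with earlier results of these data known, so no contrast between roles is drawn.

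Of the 3 interferon and antigen processing genes, only BST2 had enough reads. BST2, the interferon-induced tetherin that holds budding viruses at the cell surface, was at 0.405, 0.747 and 1.38 CPM in WT and at 1.51, 1.26 and 4.94 CPM in ARID1A-KO samples (1.65 ± 0.56). WT sample 5 lay above ARID1A-KO sample 4, and without ARID1A-KO sample 5 BST2 was not called, at 0.74. IFI30 had 5 to 18 reads per sample and HSH2D at most 3. HSH2D overlaps RAB8A on the same strand, and whether shared reads were left uncounted was not tested.

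The 37 members in no list had a median of -0.40, with 21 called lower, 2 higher and 14 not called. FKBP8, an immunophilin-like protein of the mitochondrial outer membrane, and CCDC124, a coiled-coil protein that binds ribosomes, were the most abundant of these and are named after their values were seen. FKBP8 was at 243, 242 and 298 CPM in WT and at 162, 181 and 159 CPM in ARID1A-KO samples (-0.64 ± 0.09). CCDC124 was at 112, 108 and 123 CPM in WT and at 62.9, 74.6 and 68.05 CPM in ARID1A-KO samples (-0.74 ± 0.08). Neither overlapped between genotypes. The rule for named genes added 4 members outside the lists. B3GNT3, a glycosyltransferase that extends sugar chains, was at 9.49, 8.52 and 10.6 CPM in WT and at 4.16, 3.75 and 4.24 CPM in ARID1A-KO samples (-1.23 ± 0.12). CTC-429P9.3 was at 3.63, 2.902 and 2.65 CPM in WT and at 1.34, 1.78 and 1.53 CPM in ARID1A-KO samples (-0.98 ± 0.18). In both, every ARID1A-KO sample lay below every WT sample. CTC-429P9.3 lies inside SMIM7 on the same strand, so its reads cannot be told apart from unspliced SMIM7 RNA. UCA1, a long non-coding RNA, had the highest log2 fold change of all members, from 1.78, 2.14 and 2.44 CPM in WT to 3.98, 3.58 and 12.6 CPM in ARID1A-KO samples (1.68 ± 0.44). All ARID1A-KO samples were above the WT samples, and without sample 5 the value was 0.84 and UCA1 was still called, but without WT sample 3 it was not called, at 1.56. COLGALT1, which glycosylates collagen, had the highest CPM of the members called higher, from 70.7, 73.5 and 72.9 CPM in WT to 82.3, 84.7 and 82.3 CPM in ARID1A-KO samples (0.20 ± 0.05). Its difference was small, but the genotypes did not overlap.

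As a description of the spread among members, the edgeR fit was repeated with their own median taken off. It then called 43 members (39.8%), 21 below and 22 above that median, and 36% of all genes (18.2% lower and 17.8% higher), so the share of members is near that of all genes and nothing is read from it. Those below were led by CYP4F11, B3GNT3, ANKLE1, DDA1 and FCHO1. Those above were the 12 genes called higher and 10 more, among them GDF15, CERS1, ATP13A1, SYDE1 and ILVBL. The log2 fold changes of the members ranged from -1.69 to 1.68.

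Among the members, the median fall differed with abundance and strand, and neither difference was tested. Rank correlation of log2 CPM with log2 fold change was -0.21 over the 108 members and -0.07 over all genes tested. Members over 1 log2 CPM (81 genes) had a median of -0.52, with 63 called lower and 7 higher. Of the 13217 tested genes over that level, 2774 were called lower and 2476 higher. The 27 members at or under it had a median of -0.33, with 5 called lower, 5 higher and 17 not called. Of the 6382 tested genes at or under it, 842 were called lower and 1007 higher. The members called higher had a median log2 CPM of 1.24, against 5.08 for those called lower. The 28 members that were not called had a median log2 CPM of 0.36 and a median log2 fold change of -0.16, with 23 below 0, and a median SE of 0.23 against 0.09 for called members. Members on the plus strand had a median of -0.56 (57 genes) and those on the minus strand one of -0.35 (51 genes). The strands were not compared over all genes tested. The 77 members with no overlapping gene on the same strand had a median of -0.38 and the 31 with one -0.56. The median exonic GC content of the members was 59.2%, against 47.8% over the 19020 tested genes with a value. Rank correlation of GC content with log2 fold change was 0.22 over these genes and 0.01 over the 106 members with a value, which share the same libraries. With an offset for GC content in the fit, the members' median was -0.59, with 76 called lower and 9 higher.

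The threshold of 10 reads set the membership of a few low genes. Just inside it were MEF2B (10 to 28 reads, -0.65), RPL23AP2 (11 to 16 reads, -0.30), CYP4F3 and CTD-3222D19.7 (11 to 25 reads, -0.05). Just outside it were AC005336.4 (7 to 63 reads, -2.16), LINC00663 (7 to 44 reads, 1.11), KIAA1683 (6 to 23 reads) and MIR3189 (6 to 22 reads). The genes just inside the threshold all lay below 0, and those just outside lay on both sides of it or had too few reads to be tested.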

How the data were processed

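RNA-seq of 3 WT and 3 ARID1A-KO samples was analysed, grouped by their labels. Per the methods, paired reads were aligned to GRCh37 by STAR within the Roddy workflow. The counts deposited are raw whole numbers that featureCounts gave for each gene. TPM values that the authors computed stand beside them and were used as a score per length. The labels call the RNA polyA, whereas the library kit named is one for total RNA. The methods name annotation v29 lift 37, but the gene identifiers in the files carry older version suffixes. Forward-strand counts came to 1.93% to 2.24% of the members' reverse-stranded counts, and the reverse-stranded counts were used. Depth was 54512105 to 84088708 counts per sample, which makes counting error minor except for genes of few reads.

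Counts were filtered with filterByExpr, normalised by TMM and compared with the quasi-likelihood test of edgeR 4.0.16 under R 4.3.3 (limma 3.58.1), genotype alone, with Benjamini-Hochberg adjustment over all 19599 genes. The standard error is the log2 fold change over the root of F. The members and role lists were chosen with earlier results of these data known. Named genes are the 3 most abundant members of each list, the 8 lowest and up to 8 highest called members over 1 log2 CPM (7 were found), NOTCH3, JAK3 and MAU2, ARID1A, and genes next to the count threshold and to the ends. Some genes that this rule names are not reported here. Other genes given with values, such as ATP13A1 and those so marked, were named after their values were seen. Of the members, 66 overlap another gene on the opposite strand, which stranded counting keeps apart. On the same strand 31 overlap another gene, such as CERS1 with GDF1, RAB8A with HSH2D and NDUFA13 with YJEFN3. How reads shared by such genes were assigned is not given in the sources used here, so their low counts may understate their RNA.

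The alternatives were DESeq2 1.42.0, RLE normalization, no filter or a minimum of 10 counts per sample, unstranded counts, the replicate number as a block, each sample left out, loess offsets (span 0.3) on exonic length and GC content, an adjusted p under 0.01, a 2-fold change, the members' median taken off, and for TPM 1 added, a mean of at least 1 or unstranded values. The scripts were tested on simulated data. With 3 samples against 3, no exact permutation test goes below p = 0.1, and none is reported.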

Additional observations from a re-analysis of the deposited data

How the results depend on the processing

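The members' median log2 fold change was -0.45 and stayed between -0.48 and -0.42 with each sample left out, with 55 to 63 members called lower and 6 to 11 higher. The lowest number of higher calls, 6, came without WT sample 3, when UCA1, BST2, COLGALT1, JAK3, PBX4 and LPAR2 were no longer called. An offset for GC content gave a median of -0.59. An adjusted p under 0.01 left 4 higher, a 2-fold change 6 lower and 5 higher, and the members' median taken off 21 lower and 22 higher. DESeq2 called 67 lower and 10 higher, of which 66 and 10 were also called by edgeR. The median log2 TPM ratio was -0.44, -0.37 with 1 added to each TPM and -0.48 to -0.40 with each sample left out. The sign turned for some genes and lists near 0. NOTCH3 was at 0.01 without WT sample 5 (-0.30 without WT sample 4), the secreted and matrix list's median at 0.03 and 0.02 without ARID1A-KO samples 3 and 4 (and at -0.13 without sample 5), and the receptor and signalling list at -0.26 without ARID1A-KO sample 5. The cause was not tested.

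Samples with the same replicate number did not deviate together in every pair (correlations of -0.21, 0.39 and 0.25). So few pairs cannot show whether samples of the same number share a batch, and the labels do not say. With the replicate block, 69 members were called lower and 13 higher, with a median of -0.45, and 67 and 12 of these were also called without it.

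With 3 samples per genotype, weak differences are uncertain. ILVBL was not called in 10, AP1M1 and SLC27A1 in 7 and LPAR2 and BST2 in 6, COLGALT1 in 5, CILP2 in 4, JAK3 in 3, NCAN and PBX4 in 2, and KLF2 and UCA1 in 1 of 14 alternatives, and low genes near the threshold of 10 reads allow no firm statement.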
